A study of Mus musculus with 4 samples.

Results

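Interferons are secreted proteins that put cells into a state of defence against viruses and other intracellular microbes. The 47 genes described here are the gene of interferon gamma (Ifng), the 4 genes of the type I and type II interferon receptor chains, and 42 interferon-stimulated genes, which cells switch on when those receptors signal. They were taken by symbol from a fixed list, with no cut on their level, out of the 50600 genes measured, and all 47 were found. The list was chosen with earlier results of these data known, so counts of detected genes are not those of a blind choice. The samples were primary mouse T-helper 17 (Th17) cells, the CD4 T cells that make interleukin-17, of strain C57BL/6NJ, sequenced as 4 RNA-seq libraries in 1 group. The labels call these biological replicates 1 to 4, give them separate biosamples but a single donor identifier, and place the cells in a CD4 T-cell differentiation protocol. Sex was not collected and age is unknown, and the labels name no gene alteration, no added interferon and no second condition. What can be compared is thus the level of one gene with another in the same library, and a gene's level from replicate to replicate. Because separate animals are not named, the spread between libraries may be partly technical. Transcripts tied to sex, given below, show that the libraries did not all come from a single animal.

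Type I interferons bind the receptor chains IFNAR1 and IFNAR2, which act through the kinases JAK1 and TYK2 to form ISGF3, a transcription factor complex that contains STAT2 and IRF9. ISGF3 binds the interferon-stimulated response element (ISRE) in the promoters of its targets. Interferon gamma, the type II interferon, binds IFNGR1 and IFNGR2, which act through JAK1 and JAK2 and lead to binding at the gamma-activated sequence (GAS). Interferon gamma is known as a product of T-helper 1 cells and as an inhibitor of Th17 differentiation.

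The libraries held 24696730 to 37025016 fragments, and levels are given as transcripts per 1000000 (TPM), computed from the fragment count over the summed exon length of each gene. A gene was called detected where none of the 4 libraries was below 1 TPM. The floor of a gene was taken as the level of 3 fragments in the shallowest library. It is a limit for a single library, so a mean of the 4 libraries under it does not show that a gene is absent. Values with ± are the mean and SD of the 4 libraries (n = 4). Replicates 1 and 2 stood apart from replicates 3 and 4 in the X-inactivation transcript Xist, at 186 and 161 against 0.687 and 0.721 TPM, and in the Y-linked Ddx3y, at 0.442 and 0.446 against 88.6 and 83.2 TPM. Replicates 1 and 2 thus had the pattern of female cells and replicates 3 and 4 that of male cells. The 4 libraries therefore did not all come from a single animal, although the labels give a single donor identifier. Chi-square over its degrees of freedom, across genes, was 3.41 and 3.66 within these pairs and 6.39 to 7.95 between them, so no library repeated another within sampling noise. All 10 Th17 marker genes were detected, from the receptor gene Il23r at 2.14 ± 0.154 TPM to the transcription factor gene Irf4 at 1650 ± 43.8 TPM. Of the markers of other cells, 3 of 6 Th1 genes were detected, with Cxcr3 the highest at 12.8 ± 1.44 TPM, and of 7 CD8 and natural killer genes Cd8b1 alone was, at 7.32 ± 1.16 TPM, while Cd8a was at 0.102 TPM, under its floor of 0.113 TPM, and Klrb1c, Ncr1 and Klrk1 had no fragment. No B-cell (0 of 6), myeloid (0 of 8) or neutrophil (0 of 5) marker was detected, and their summed levels lay at 0.291 to 0.931 TPM for B cells and 0.114 to 0.255 TPM for myeloid cells. The highest of these genes were Cd79a at 0.343 TPM for B cells, Itgax at 0.0572 TPM for myeloid cells and Ly6g at 0.0274 TPM for neutrophils. The lowest had no fragment in any library: Ms4a1 and Pax5 for B cells, Lyz2, Fcgr1 and Clec9a for myeloid cells, and S100a8, S100a9, Elane and Mpo for neutrophils.

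The 24 of 47 genes that were detected came close to the share among all protein-coding genes, of which 44.8% were detected (22.1% of all 50600 genes). All 4 libraries were at or above 10 TPM for 10 of the 47, against 33.9% of protein-coding genes, and at or above 100 TPM for 1 of the 47, against 8.72%. A mean under the gene's own floor was found for 10, of which 1 had no fragment at all, against 36.8% of protein-coding genes with none. Their median level was 1.47 TPM, at percentile 55.5 of protein-coding genes. Detection did not fall evenly over the families. Receptor chains (4 of 4) and the group of PARP9, PARP14, DTX3L and TRIM21 (4 of 4) were detected in full, whereas the OAS (0 of 5) and MX (0 of 2) genes were not. In bulk RNA, fewer cells that express a gene and less RNA per cell cannot be told apart.

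**Figure D1:**
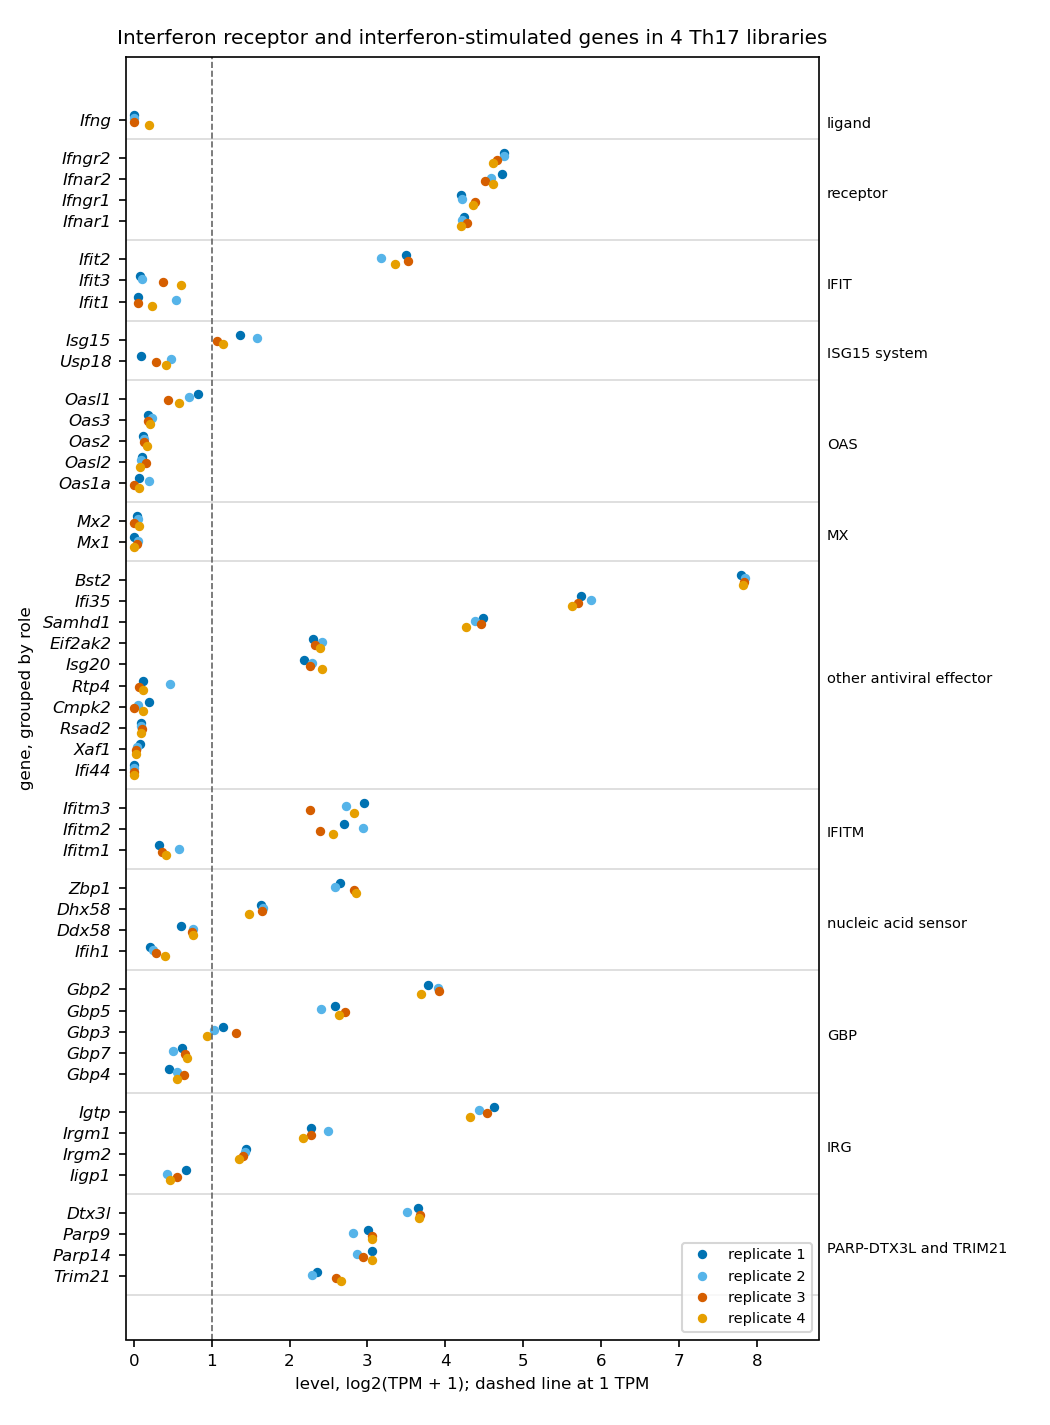
Level of each of the 47 genes, as log2(TPM + 1), in replicates 1 to 4 (1 point per library), grouped by the role of the gene, with the dashed line at 1 TPM. Bst2 stands alone near 227 TPM, the 4 receptor chains lie together between 17.4 and 26.1 TPM, and every point of the OAS and MX genes is left of the line.

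Promoter sequence was read from RefSeq (build GRCm38.p6, the assembly also called mm10), from 250 bases before to 50 bases after each annotated start, and 36 of the 47 genes had an entry. The ISRE was searched as GAAANNGAAA on both strands and the GAS as TTCNNNGAA, which reads the same on both strands. Copies of either motif may overlap. The ISRE letters were in a promoter of 20 of the 36 genes (55.6%) and of 1079 of 27025 genes with an entry (3.99%). The GAS letters were in 15 of the 36 (41.7%), against 9.55% of all genes with an entry. Both motifs were present in 8, and 9 had neither. Detected and undetected genes held the ISRE letters at nearly the same share, 11 of 20 (55%) and 9 of 16 (56.2%). The GAS letters were in 12 of the 20 detected genes and in 3 of the 16 others (18.8%), a difference given without a test. With the letters searched only in the 250 bases before the start, those genes with a GAS were 9 of 20 and 3 of 16, together 33.3% against 8.13% of all genes with an entry, and ISRE letters were in 41.7% against 3.46%. With 4 instead of 3 free bases the GAS count dropped to 6 of the 36 (16.7%, against 8.01% of all genes), of which 4 were in detected genes. With 1 mismatch allowed, ISRE letters were in 28 of the 36 (77.8%) and in 38.9% of all genes, so the contrast with other genes was much smaller than for exact letters. A match of letters is a description of the sequence and says nothing of binding in these cells.

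**Figure D2:**
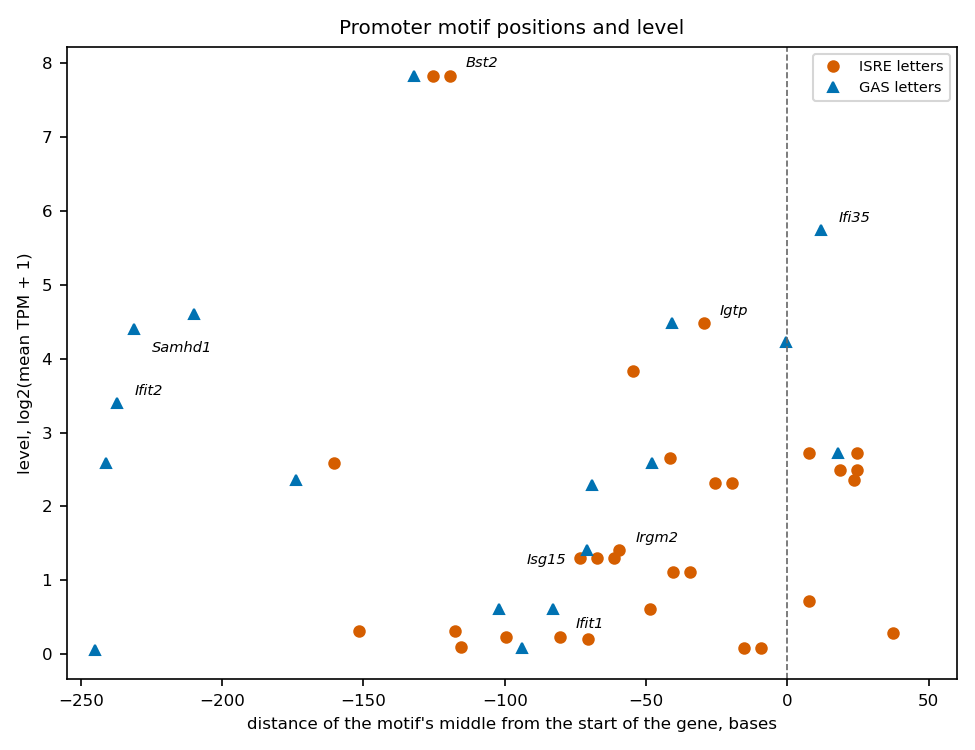
Position of each ISRE match (circles) and GAS match (triangles) in the promoters of the 36 genes, in bases from the start of the gene (dashed line), against the level of that gene as log2(mean TPM + 1). ISRE matches occur across the whole range of levels, from Bst2 at 227 TPM to Ifit1 at 0.177 TPM and below.

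The ligand came first in the pathway and was nearly absent. Ifng (chr10:118441046-118445892 on mm10, plus strand) had 0 fragments in replicates 1, 2 and 3 and 2 fragments in replicate 4, which is 0.142 TPM there and less than its floor of 0.316 TPM. Another gene on the same strand, Gm49751, overlaps 25.9% of its exon bases, and fragments there may have been left uncounted. None of the 11 other interferon genes on the list made for this purpose (Ifnb1, Ifnk, Ifne, 6 Ifna genes and 2 Ifnl genes) had a fragment in any library. With Ifnb1, the gene of interferon beta, the floor was 0.546 TPM. Several Ifna and Ifnl genes share long stretches with one another, up to 67.4% of the 50-base words of Ifna1, so their zeros carry less weight than that of Ifnb1.

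The 4 receptor chains were detected at similar levels. Ifnar1, the chain that docks TYK2, was at 17.9, 17.6, 18.4 and 17.4 TPM in replicates 1 to 4 (17.8 ± 0.427). Ifnar2, the chain with the higher affinity for the ligand, was at 25.5, 23.0, 21.7 and 23.4 TPM (23.4 ± 1.59). Ifngr1, the ligand-binding chain of the type II receptor, was at 17.4, 17.6, 19.8 and 19.5 TPM (18.6 ± 1.23). The lower pair of its values came from the replicates with Xist and the higher pair from those with Ddx3y. The part of that division in Ifngr1 was not tested. In Ifngr2, given next, the higher pair came from the replicates with Xist. Ifngr2, the signal-transducing chain of that receptor, was at 25.9, 26.1, 24.4 and 23.5 TPM (25.0 ± 1.24), and in T cells it is known to be the limiting chain. The libraries of Ifngr2 and Ifnar2 overlapped, as did those of Ifngr1 and Ifnar1, whereas all 4 values of Ifngr2 were above all 4 of Ifngr1.

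Within libraries, the difference in log2(TPM + 1) of Ifngr1 minus Ifngr2 was -0.54, -0.54, -0.29 and -0.26 in replicates 1 to 4 (-0.41 ± 0.16), lower in 4 of 4. Ifnar2 exceeded Ifnar1 in 4 of 4 libraries, by 0.37 ± 0.11. Each had p = 0.125 in the exact two-sided sign-flip test, the smallest that 4 libraries allow, and an adjusted p of 0.156 over the 10 pairs of genes compared. Ifngr1 and Ifnar1 differed by 0.05 ± 0.09 (exact p = 0.5, adjusted 0.556), less than the spread between libraries. Ifngr2 minus Ifnar2 was 0.09 ± 0.09 (exact p = 0.125, adjusted 0.156). The order of the chains depends on the length used. Divided by the longest annotated transcript in place of all exons together, Ifngr1 minus Ifngr2 became 0.16 and Ifnar2 minus Ifnar1 became -0.07. Neither direction thus holds across both lengths. The longest transcript of Ifngr2, 3708 bases, comes from a later annotation, GENCODE M21. It is longer than the 3313 exon bases over which the fragments of Ifngr2 were counted, so these lengths do not cover the same exons. Of the receptor chains for interferon lambda, Il10rb was at 8.94 ± 0.454 TPM, and Ifnlr1, the chain specific to that ligand, had no fragment (floor 0.0979 TPM). Ifnar2, Ifnar1 and Ifngr2 lie together on chromosome 16, at chr16:91372783-91565169.

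**Figure D3:**
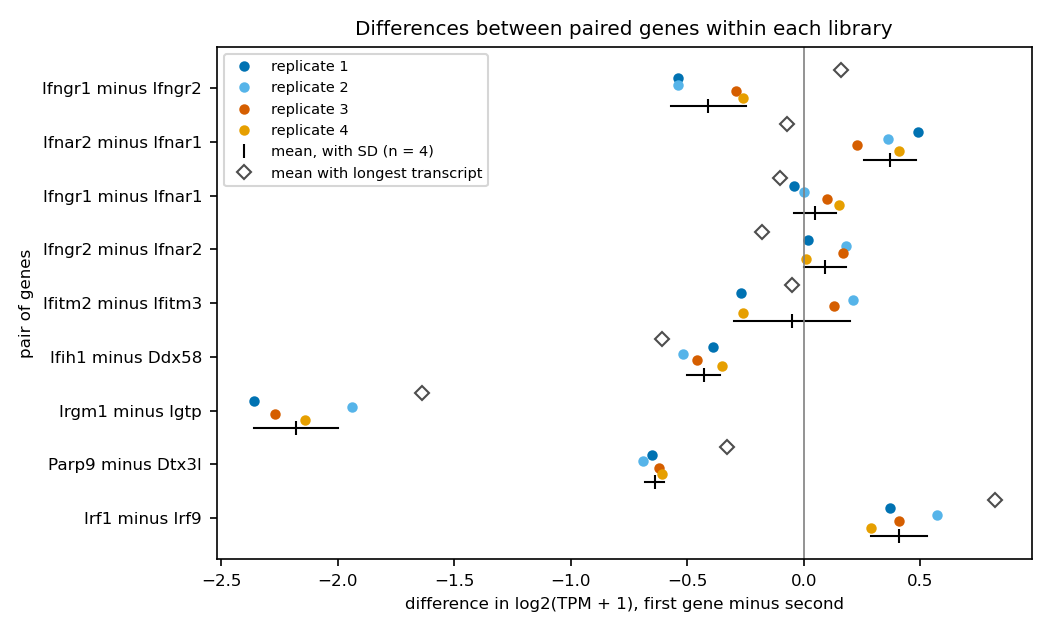
Difference in log2(TPM + 1) between the genes of each of 9 pairs, first gene minus second, in replicates 1 to 4 (points), with the mean and SD (bar, n = 4) and the mean computed with the longest transcript (diamond). For the 4 pairs of receptor chains the diamond falls on the other side of 0 from the mean, while Irgm1 minus Igtp is -2.18 with all exons and -1.64 with the longest transcript.

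Among the stimulated genes, 20 of 42 were detected, with a summed level of 410 to 423 TPM over the 4 libraries. Bst2 encodes tetherin, a membrane protein that holds budding virus particles on the cell surface. It was at 222, 230, 228 and 226 TPM (227 ± 3.29), at percentile 96.4 of protein-coding genes, and the next gene of the list, Ifi35, reached at most 57.4 TPM in a library. The CV between replicates, 1.45%, was below the 2.25% that counting 1 library's fragments would give alone. Bst2 is also used as a marker of plasmacytoid dendritic cells. The other 3 genes of that marker list were measured as follows: Siglech had no fragment, Ccr9 was at 0.0351 TPM, under its floor of 0.0399 TPM, and Tcf4 was at 0.395 ± 0.0373 TPM (0.998 TPM by its longest transcript). Its promoter is shown because it belongs to the most abundant gene and holds both motifs. Capitals mark ISRE and GAS letters, here 1 GAS that runs into 2 overlapping ISRE copies, at chr8:71537566-71537625 (minus strand, bases -153 to -94 from the start).
Bst2: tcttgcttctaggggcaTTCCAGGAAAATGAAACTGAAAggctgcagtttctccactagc

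Other antiviral effectors divided into those at several TPM or more and those at or near 0. Ifi35, an interferon-induced partner of the protein NMI, was at 52.8, 57.4, 51.2 and 48.4 TPM (52.4 ± 3.80). Samhd1, which hydrolyses the deoxynucleotides that viral reverse transcription needs, was at 21.4, 19.9, 20.9 and 18.3 TPM (20.1 ± 1.39), or 37.1 TPM by its longest transcript. Ifi35 lay above Samhd1 in every library, and by the longest transcript its mean was 52.6 TPM. Eif2ak2, the double-stranded RNA-activated kinase PKR, was at 3.92, 4.35, 4.04 and 4.23 TPM (4.14 ± 0.193). Isg20, a 3′ exonuclease, was at 3.56, 3.89, 3.78 and 4.34 TPM (3.89 ± 0.328). These last values overlapped between the genes.

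The remaining 5 effectors had means under their floors. Rsad2, which encodes viperin, had 3, 2, 3 and 3 fragments (0.0655 TPM), and its neighbour Cmpk2, a mitochondrial nucleotide kinase, had 9 fragments in all (0.0681 TPM). Rtp4 had 11 fragments, 6 of them in replicate 2, and Xaf1, an antagonist of the apoptosis inhibitor XIAP, had 6. Ifi44 had none, and its floor was 0.0668 TPM. The Rsad2 window at chr12:26456539-26456598 (minus strand, bases -146 to -87) shows an ISRE match on the opposite strand, in capitals, in a gene under its floor.
Rsad2: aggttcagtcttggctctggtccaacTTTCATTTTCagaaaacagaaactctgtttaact

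The IFIT proteins bind viral RNA and block its translation. Their genes lie side by side at chr19:34550694-34650009, and 1 of 3 was detected. Ifit2 was at 10.3, 8.06, 10.5 and 9.22 TPM (9.54 ± 1.14). Ifit1 had 1, 9, 1 and 5 fragments (0.177 ± 0.201 TPM) and Ifit3 had 1, 1, 5 and 10 (0.238 ± 0.220 TPM), so Ifit2 was above both in every library. Ifit3 shares 51.2% of its 50-base words with Ifit3b and may be undercounted, but Ifit1 shares 7.1% and Ifit2 none. The promoters are shown for this contrast. Windows of Ifit1 (chr19:34640769-34640828, plus strand) and Ifit3 (chr19:34583364-34583423, plus strand) each hold 2 ISRE matches, read on the opposite strand. The window of Ifit2 (chr19:34550444-34550503, plus strand) holds 1 GAS match, and its annotated promoter had no exact ISRE letters.
Ifit2: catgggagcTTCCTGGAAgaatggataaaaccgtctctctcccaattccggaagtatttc
Ifit1: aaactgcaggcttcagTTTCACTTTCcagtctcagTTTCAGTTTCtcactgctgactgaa
Ifit3: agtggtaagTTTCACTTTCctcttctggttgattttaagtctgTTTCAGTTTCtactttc

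ISG15 is a ubiquitin-like protein that is attached to other proteins, and USP18 removes it and also dampens signalling at IFNAR2. Isg15 was at 1.58, 1.99, 1.09 and 1.21 TPM (1.47 ± 0.402), just above the threshold, from 8 to 13 fragments a library. Usp18 was at 0.252 ± 0.142 TPM and was not detected. Isg15 had the most ISRE letters of the 36 promoters, 3 overlapping copies at chr4:156200857-156200916 (minus strand, bases -98 to -39), beside a level near 1 TPM.
Isg15: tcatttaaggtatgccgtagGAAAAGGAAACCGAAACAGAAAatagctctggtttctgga

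The OAS enzymes make the oligoadenylate that activates RNase L, and the MX proteins are GTPases that trap viral components. None of these 7 genes was detected. Oasl1 was the highest at 0.563 ± 0.179 TPM, followed by Oas3 at 0.148 ± 0.0209, Oas2 at 0.0977 ± 0.0178 and Oasl2 at 0.0768 ± 0.0252 TPM. By the longest transcript Oasl2, at 0.124 TPM, was above Oas2, at 0.0868 TPM. Oas1a had 4 fragments in all and shares 57.6% of its words with Oas1g, which had no fragment. Mx1 had 2 and Mx2 had 4 fragments, both under the floor. The levels were low in every library, and Oas1b and Oas1c, close relatives outside the list, were at 1.55 ± 0.267 and 1.51 ± 0.312 TPM. The window of Oas3 at chr5:120777701-120777760 (minus strand, bases -101 to -42) shows that its promoter has the ISRE letters too.
Oas3: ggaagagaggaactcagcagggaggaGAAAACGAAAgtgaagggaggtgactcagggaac

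IFITM proteins sit in membranes and hinder the fusion of entering viruses. Their 3 genes lie at chr7:140954837-141010770. Ifitm3 was at 6.77, 5.64, 3.81 and 6.08 TPM (5.58 ± 1.27) and Ifitm2 at 5.47, 6.67, 4.26 and 4.90 TPM (5.32 ± 1.02). Ifitm2 minus Ifitm3 was -0.05 ± 0.25 in log2(TPM + 1), positive in 2 of 4 libraries (exact p = 0.75, adjusted 0.75), which is less than the spread, and it was 0.02 without replicate 1 or without replicate 4. Both were lowest in replicate 3. Ifitm1 had 14 fragments, a mean of 0.342 TPM, under its floor of 0.374 TPM. The Ifitm2 value is uncertain, since Gm45717 overlaps 40.9% of its exon bases on the same strand.

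The sensors of foreign nucleic acid were uneven. Zbp1, a sensor of left-handed (Z-form) nucleic acid that can start necroptosis, was at 5.26, 4.99, 6.12 and 6.23 TPM (5.65 ± 0.621). Dhx58, which encodes LGP2, the helicase that modulates its relatives RIG-I and MDA5, was at 2.11, 2.17, 2.12 and 1.79 TPM (2.05 ± 0.171). The signalling helicases themselves were below the threshold: Ddx58, which encodes RIG-I, was at 0.645 ± 0.0834 TPM and Ifih1, which encodes MDA5, at 0.221 ± 0.0739 TPM. Ifih1 minus Ddx58 was -0.43 ± 0.07 in log2(TPM + 1), lower in 4 of 4 libraries (exact p = 0.125, adjusted 0.156). Dhx58 was therefore above both in every library. Zbp1 was higher in replicates 3 and 4 than in replicates 1 and 2, the same division as Xist and Ddx3y, whose part was not tested.

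Guanylate-binding proteins (GBPs) are large GTPases that attack the vacuoles of intracellular bacteria and parasites, and 2 of 5 were detected. Gbp2 was at 12.7, 14.0, 14.2 and 11.9 TPM (13.2 ± 1.08) and Gbp5 at 5.00, 4.28, 5.56 and 5.22 TPM (5.01 ± 0.544). All values of Gbp2 were above all of Gbp5. Gbp3 was at 1.21, 1.04, 1.49 and 0.926 TPM, a mean of 1.17, and missed detection through replicate 4. Gbp7, at 0.532 ± 0.0835, and Gbp4, at 0.468 ± 0.0809 TPM, stayed below 1 TPM in every library. All but Gbp4 lie in a row at chr3:142493978-142638008, and these 4 neighbours ranged in their means from 0.532 to 13.2 TPM. ISRE letters were found in each of the 4 GBP promoters available, whatever the level. The Gbp5 window at chr3:142496743-142496802 (plus strand, bases -191 to -132) is shown as a detected example, with its match on the opposite strand. Gbp5 is annotated from base 142493978, so this window belongs to a start further along and may not hold every promoter of Gbp5.
Gbp5: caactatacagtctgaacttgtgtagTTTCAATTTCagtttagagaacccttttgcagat

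Immunity-related GTPases (IRGs) act on the same vacuoles, and 3 of 4 were detected. Igtp, also called Irgm3, was at 23.8, 20.6, 22.2 and 18.9 TPM (21.4 ± 2.10). Irgm1 was at 3.84, 4.65, 3.83 and 3.5 TPM (3.96 ± 0.489) and Irgm2 at 1.72, 1.70, 1.65 and 1.56 TPM (1.66 ± 0.0685). The ranges of the 3 genes did not overlap. Irgm1 minus Igtp was -2.18 ± 0.18 in log2(TPM + 1), lower in 4 of 4 libraries (exact p = 0.125, adjusted 0.156). Iigp1, an effector IRG, was at 0.446 ± 0.107 TPM and was not detected.

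Igtp and Irgm2 overlap at chr11:58199556-58222782. Irgm2 is annotated from base 58199618, within Igtp, which runs from 58199556 to 58207591. The Irgm2 window belongs to a start further along, so it may not hold every promoter of Irgm2. The windows are shown side by side because they are nearly alike while the levels of the genes are not. In these windows (Igtp chr11:58199496-58199555, bases -60 to -1, and Irgm2 chr11:58214887-58214946, bases -90 to -31, both plus strand) 58 of 60 bases were identical, and each holds 1 GAS and 1 ISRE match. The annotated exons of the genes overlap by 162 bases on the same strand, which is 8.0% of Igtp and 4.4% of Irgm2, so both may be somewhat undercounted.
Igtp: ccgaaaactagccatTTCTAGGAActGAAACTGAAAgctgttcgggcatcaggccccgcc
Irgm2: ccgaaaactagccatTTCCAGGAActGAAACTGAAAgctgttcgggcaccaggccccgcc

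The last group was detected as a whole. DTX3L, a ubiquitin ligase, and PARP9 form a complex, and their genes lie with Parp14, whose product is an ADP-ribosyltransferase, at chr16:35832874-35972605. Dtx3l was at 11.6, 10.4, 11.8 and 11.7 TPM (11.4 ± 0.674), Parp9 at 7.05, 6.05, 7.36 and 7.34 TPM (6.95 ± 0.617) and Parp14 at 7.34, 6.32, 6.67 and 7.32 TPM (6.91 ± 0.504). All 3 were lowest in replicate 2, and Parp9 and Parp14 overlapped. Parp9 minus Dtx3l was -0.64 ± 0.04 in log2(TPM + 1), lower in 4 of 4 libraries and the tightest of the 10 pairs (exact p = 0.125, adjusted 0.156). Trim21, the antibody receptor of the cytosol and a ubiquitin ligase, was at 4.13, 3.89, 5.07 and 5.33 TPM (4.61 ± 0.700), higher in replicates 3 and 4, as Zbp1 was. Detected genes of the list divided in both directions. Dtx3l, Parp9 and Gbp5 were also higher in replicates 3 and 4, whereas Ifngr2, Ifitm2, Ifi35, Irgm1, Irgm2 and Isg15 were lower there. The share of all genes that divide in this way was not counted, so the division does not set these genes apart. None of these genes was called in the variability test given below, for which Isg15 had too few fragments.

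Ordered by mean, the 24 detected genes formed 23 neighbouring steps, and the ranges over the 4 libraries overlapped in 15 of them. The 8 steps without overlap included those from Bst2 to Ifi35, from Ifi35 to Ifngr2, from Ifnar1 to Gbp2, from Ifit2 to Parp9 and from Isg20 to Dhx58. From Ifngr2 down through Ifnar2, Igtp, Samhd1 and Ifngr1 to Ifnar1, each gene overlapped the next. On the chromosomes, 27 of the 47 genes lay in 10 loci with gaps of at most 500000 bases. In 3 of these (Ifnar2 with Ifnar1 and Ifngr2, the Parp14 locus, and Igtp with Irgm2) all listed genes were detected, and in 4 (Rsad2 with Cmpk2, the Mx genes, and both Oas loci) none was.

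Whether any of these genes varied more between replicates than the trend for genes of similar abundance was tested with edgeR's quasi-likelihood model. The model was fitted over 11847 genes with Benjamini-Hochberg adjustment. Of all genes, 36 (0.304%) were called at an adjusted p under 0.05, and 5.69% had an unadjusted p under 0.05. Enough fragments for the test were present for 29 of the 47 genes. None of the 29 was called and none had an unadjusted p under 0.05, and none was called with limma-trend or in any other alternative tried. The smallest adjusted p by edgeR was 0.968, for Ifi35. The CV of the 29 lay between 1.45% for Bst2 and 33.5% for Ifih1, with a median of 8.88% against 5.08% for all genes tested. A mean under 100 fragments, where counting error is large, was found for 11 of the 29. The residual spread over the fitted trend had a median of 0.973 in these genes and 0.804 in all genes tested. A gene that is not called is not shown to be constant. These p-values ask whether a gene's spread between these libraries exceeds the trend over the genes tested, not whether the gene varied at all.

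**Figure D4:**
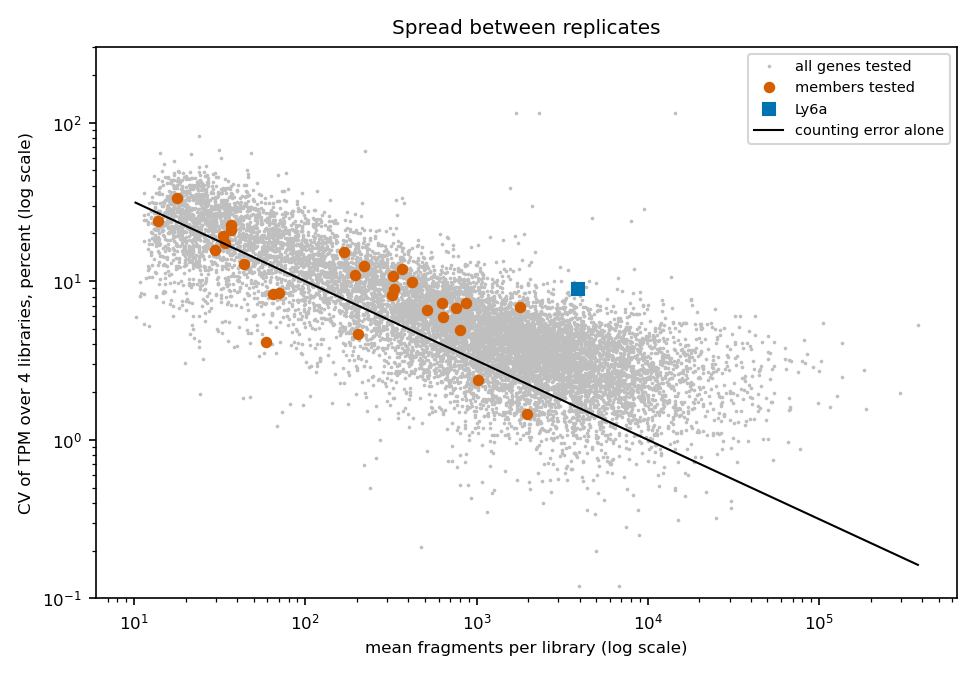
CV of TPM over the 4 libraries, in percent, against the mean fragments per library (both axes on a log scale) for all 11847 genes tested, the 29 listed genes among them and Ly6a, with the line showing counting error alone. The listed genes follow the cloud of all genes, from Ifih1 at 33.5% to Bst2 at 1.45%, and Ly6a stands above it.

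The signalling chain behind the receptors was well represented, with 11 of 13 genes of signalling and transcription detected. The kinase genes Jak2 (249 ± 8.37 TPM), Jak1 (151 ± 5.72) and Tyk2 (25.8 ± 1.46) were all detected. Stat3, which also serves interleukin-6 and interleukin-23 signalling, was at 226 ± 6.62 TPM. In the ISGF3 complex, Irf9 was at 16.8 ± 0.668 TPM and Stat2 at 7.34 ± 0.25 TPM. Irf1 exceeded Irf9 by 0.41 ± 0.12 in log2(TPM + 1), in 4 of 4 libraries (exact p = 0.125, adjusted 0.156). Among the interferon regulatory factors, Irf8 was at 177 ± 7.74 (285 by its longest transcript), Irf3 at 87.5 ± 1.72, Irf1 at 22.6 ± 1.62 and Irf2 at 7.77 ± 0.726 TPM. Irf5, at 1.31 ± 0.364 TPM, fell below 1 TPM in replicate 1. Irf7, itself a classical interferon-stimulated gene, was at 0.268, 0.289, 0.0822 and 0.121 TPM (0.190 ± 0.104), below the threshold in every library.

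Negative regulators of the pathway were all detected, 7 of 7. The phosphatase gene Ptpn6 was at 272 ± 10 TPM, the suppressor gene Socs1 at 193 ± 11.4, its relative Cish at 169 ± 4.61 and Ptpn2 at 129 ± 3.82 TPM, and Pias1 was the lowest at 21.8 ± 0.414 TPM. By the longest annotated transcript Socs1 was at 64.0 TPM, below Cish at 182 TPM and Ptpn2 at 119 TPM. Its place in this order thus depends on the length used. That transcript of Socs1, 2908 bases in a later annotation, is longer than the 1220 exon bases over which fragments were counted. The value of 64.0 TPM may therefore be too low. The median of this list was 129 TPM, against 0.907 TPM for the stimulated genes. These lists were not matched in their genes, and a link between their levels was not tested. Of 13 genes listed for the induction of interferon by sensing, not all of them inducers, 10 were detected. The adaptor genes Myd88 (234 ± 12.3 TPM), Tmem173, which encodes STING (70.6 ± 2.43), and Mavs (48.9 ± 1.80) led, with the ubiquitin ligase gene Trim25 at 59.4 ± 1.66 TPM. Trex1 was listed at 0, but all of its exon bases overlap a gene on the same strand, so that value cannot be read.

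The share detected differed between the lists of other targets, beside 44.8% of all protein-coding genes. The lists were not matched in their genes, so their shares do not compare the types of interferon. All 12 targets in class I antigen presentation were detected, among them B2m (2280 ± 87.1 TPM), H2-K1 (1040 ± 19.4), H2-D1 (719 ± 14.9) and the proteasome activator gene Psme1 (279 ± 12.5), with the immunoproteasome subunit gene Psmb9 the lowest at 10.6 ± 0.749 TPM. Many of these are expressed without interferon as well. Of 44 further type I targets 28 were detected, led by Slfn2 (1140 ± 19.6 TPM), Ly6a (335 ± 29.8), Shisa5 (169 ± 6.99) and Pnpt1 (129 ± 4.84), and Ifi205 had no fragment. Of 21 further type II targets 4 were detected: Ifi30, a lysosomal thiol reductase gene, at 143 ± 2.95 TPM, the IRG gene Ifi47 at 131 ± 13.2, Cd274, which encodes PD-L1, at 48.5 ± 4.72, and Cd74, the invariant chain gene, at 8.19 ± 1.57 TPM, while Ido1 had no fragment. Over all these lists 73 of 123 genes were detected, and several of the type II targets, such as the Tgtp genes, share most of their sequence with a copy.

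**Figure D5:**
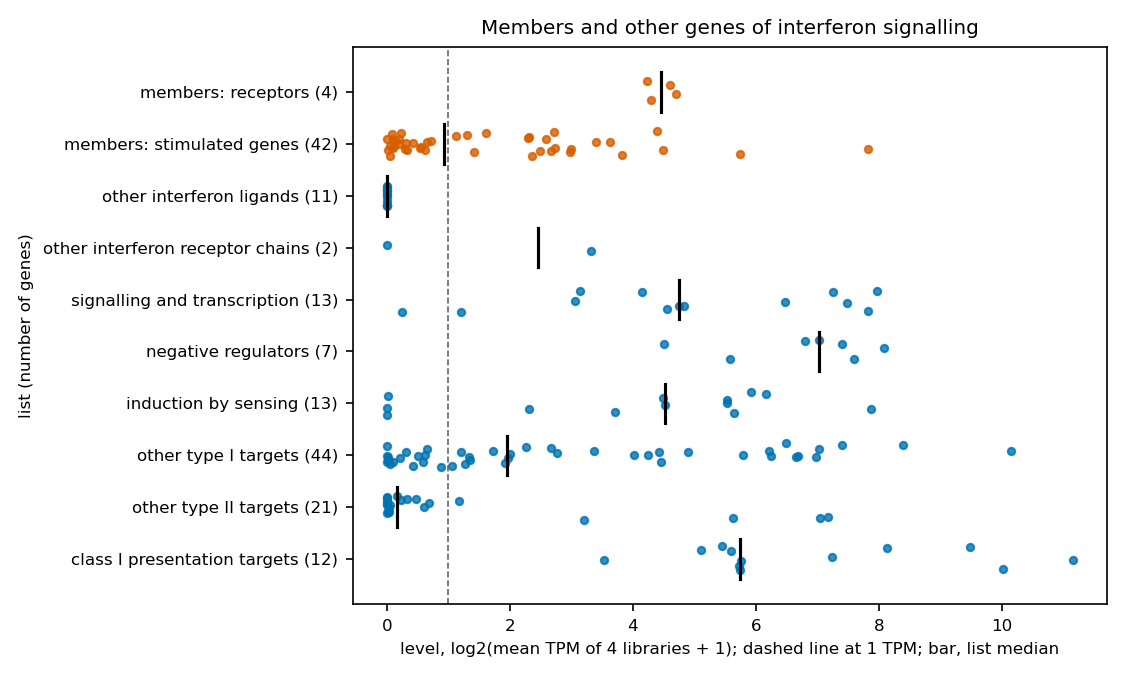
Mean level of each gene, as log2(mean TPM of 4 libraries + 1), in the listed receptors and stimulated genes (orange) and in the other lists of the pathway (blue), with the number of genes in brackets, the list median (bar) and 1 TPM (dashed line). The 11 other ligand genes lie at 0, the negative regulators have their median at 129 TPM, and the 42 stimulated genes spread from 0 to 227 TPM.

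Of the 123 further pathway genes, 83 could be tested for variability and 1 was called, beside the 0.304% of all genes. Ly6a, the gene of the surface antigen Sca-1, was at 316, 302, 357 and 363 TPM in replicates 1 to 4 (edgeR adjusted p = 0.0331). Ly6a shares 19.0% of its 50-base words with other genes, 15.0% with Ly6c1, so it may be undercounted. It was higher in replicates 3 and 4, the libraries with Ddx3y, and the part of that difference in Ly6a was not tested. The call was lost with limma-trend (adjusted p = 0.129), with a prior without robust estimation (0.131), and without replicate 1 (0.0654), replicate 2 (0.25) or replicate 4 (0.401), though not without replicate 3.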

How the data were processed

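The authors deposited raw fragment counts per gene, made, per the file headers, with featureCounts 1.4.6-p4 over exons of GENCODE vM13, with paired ends, both ends aligned and strand option 2 (reverse). The build is mm10 per the labels. The alignment names carry the tag star2 and a tag of 16 hr that the labels do not explain, and no source used here gives the version of the aligner. The labels title the assay total RNA-seq but link a polyA+ library protocol. Fragments that align to several places or overlap several genes are left out by the program's default, and the headers name no other option, so near copies and overlapping genes may be undercounted. The files also give the summed exon length of each gene.

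TPM was computed here as count over that length, scaled to 1000000 per library. Exons of all isoforms count toward the length, which lowers genes with long unused exons. Symbols came from GENCODE M21 (mm10) and matched 50376 of 50600 identifiers, and no row named anything but a gene. The longest-transcript lengths came from GENCODE M21 too, while the exon lengths are of vM13, so a longest transcript can exceed the summed exons. Floors are 3 fragments in the shallowest library, 0.275 to 0.409 TPM for a gene of 1 kb over the libraries, and cover counting error only.

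The variability test ran in R 4.3.3 with edgeR 4.0.16 (intercept only, filterByExpr, TMM, robust prior, older deviance), upper tail of F, and was tested on simulated data first. There it recovered 58 of 100 genes given an added log2 SD of 0.25 and 97 of 100 given 0.5, with 6 false calls among 161. Genes with few fragments were given no added spread, so recovery among them was not measured. Alternatives used limma 3.58.1, DESeq2 1.42.0 size factors, other filters, priors and lengths, and each replicate left out. Pairs of genes used log2(TPM + 1), on which a fold of a low gene is understated, and an exact sign-flip test. Shared sequence is the share of 50-base words found in transcripts of other genes. Promoter orientation was checked against transcripts: 37 of 40 promoters had their start bases in a sense transcript and 0 in an antisense one. Promoters were not used for Usp18, Oas2, Mx1, Mx2, Rtp4, Dhx58, Zbp1, Gbp4, Iigp1, Parp9 and Parp14. Tables and plots were made with pandas 2.3.3, numpy 2.4.6 and matplotlib 3.10.9 in Python 3.11.15.

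All 47 genes are named. Of each pathway list the 4 highest and the lowest by mean TPM, every signalling gene but 1, and any gene called are named, and of marker lists the highest and the lowest. Oas1b, Oas1c, Ccr9, Tcf4, Cd8a and the additional genes of the closing section were chosen after their values were seen. That signalling gene, and the 1 of the 10 gene pairs it belongs to, are not reported here. The members and lists were chosen with earlier results of these data known.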

Additional observations from a re-analysis of the deposited data

Results flagged for a closer look

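In each group of 4 libraries, a value was picked out where its gap to the nearest library, divided by the range of the 4, passed Dixon's critical value for 4 samples. This happened for 8 of 102 values checked. Chance flags about 1 in 20 of normally distributed values, a rate that need not hold for genes with few fragments. Among the listed genes the ratio was 1.0 for Ifng, whose only fragments were in replicate 4, and 0.929 for Rsad2, at 0.0717 TPM in replicate 3 against 0.0631 to 0.0637 TPM. It was 0.888 for Rtp4, at 0.384 TPM in replicate 2 against 0.0485 to 0.0862 TPM, and all 3 of these genes were under their floors. For Ddx58 it was 0.874, with replicate 1 low at 0.521 TPM against 0.675 to 0.697 TPM. For Dhx58 it was 0.832, with replicate 4 low at 1.79 TPM against 2.11 to 2.17 TPM. For Dtx3l it was 0.864, with replicate 2 low at 10.4 TPM against 11.6 to 11.8 TPM. Among pathway genes it was 0.996 for the phosphatase gene Ptpn6, with replicate 2 at 256 TPM against 277 TPM in the others, and 0.891 for the class I gene H2-D1, with replicate 3 at 696 TPM against 724 to 727 TPM.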

How the results depend on the processing

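The count of 24 detected genes fell to 13 at a threshold of 5 TPM and stayed within 1.5 times of 24 under the other thresholds, scalings and left-out libraries tried. The count of all genes called in the variability test was 36. It was 94 with no filter beyond 1 fragment and 17 with a prior without robust estimation. With a replicate left out it was 15 to 37, lowest without replicate 4. None of the 47 genes was called in any of these fits, and an unadjusted p under 0.05 appeared for Ifit1 with no filter (0.0479) and for Samhd1 without replicate 2 (0.0448). Of 79 alternative values of the gene pairs, 73 kept their direction. With the longest transcript as length the 4 receptor pairs reversed: Ifngr1 minus Ifngr2 to 0.16, Ifnar2 minus Ifnar1 to -0.07, Ifngr1 minus Ifnar1 to -0.10 and Ifngr2 minus Ifnar2 to -0.18. Ifitm2 minus Ifitm3 lay between -0.13 and 0.02 with a replicate left out, and reversed to 0.02 without replicate 1 and to 0.02 without replicate 4. That length changed the levels of the 46 listed genes with a fragment by 0.704 to 1.85 times, over 1.5 times for Oasl2 and Samhd1. Among other genes named, it moved Socs1 from 193 to 64.0 TPM, Irf8 from 177 to 285, Tcf4 from 0.395 to 0.998 and Ccr9 from 0.0351 to 0.0549 TPM. For Ifngr2 and Socs1 the longest transcript, from a later annotation, exceeds the exons over which fragments were counted. Genes with a GAS went from 15 to 6 with 4 free bases. Depth limits the genes near or under their floors, and with 4 libraries no exact test of a pair can pass 0.05. No paired analysis was possible because there is 1 group of samples.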

Other observations

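Of the 83 pathway genes tested for variability, 11 had an unadjusted p under 0.05, against 5.69% of all genes tested, and all of these but Ly6a missed the adjusted threshold. Ifi47, an IRG gene of the type II targets, was at 141, 143, 121 and 117 TPM in replicates 1 to 4 (edgeR adjusted p = 0.0518), lower in the libraries with Ddx3y, where Ly6a was higher. It passed 0.05 with no filter (0.00324), with at least 10 fragments in every library (0.0457) and without replicate 3 (0.0238). Cgas, the sensor of cytosolic DNA, was at 19.6, 19.9, 23.3 and 23.3 TPM (adjusted p = 0.759). Psme2, a proteasome activator gene that shares 28.3% of its 50-base words with Psme2b, was at 165, 137, 138 and 160 TPM (adjusted p = 0.303), and it passed with no filter (0.0456) and in no other setting tried. The others were Slfn8, Ly6e, Ikbke, Cd274, Myd88, Tapbp and Nlrc5, with adjusted p by edgeR from 0.503 to 0.837.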
